A study of Mus musculus with 2 samples.

Results

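The cells described here are smooth muscle cells of the mouse uterus that carry a Pcp4, Asic2, Gata6, Prune2 and Tnnt2 signature. A barcode was kept with 1000 or more unique molecular identifiers (UMIs, counts of single captured transcripts), 500 or more genes and no more than 20% mitochondrial UMIs. A kept barcode was called smooth muscle when at least 4 of the 6 genes Myh11, Des, Cnn1, Actg2, Synpo2 and Smtn had a UMI, Rgs5 had fewer than 2 UMIs, and Epcam, Pecam1 and Ptprc had none. It was a member when at least 2 of the 5 signature genes had a UMI and more of them did than of Acta1, Tnni2, Chrdl1, Chrdl2 and Slc22a3. This gave 1080 members among 13935 kept barcodes, 298 of 7610 in the f/f library and 782 of 6325 in the d/d library. The members were thus chosen by UMIs of these genes, whose values are given as a description with no test.

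Whole uterus was taken on gestational day 4 from mice of 2 genotypes, Mettl14 f/f (floxed alleles) and Mettl14 d/d (deleted alleles), with 1 droplet library of 3′ transcript ends per genotype. The labels used here name neither the Cre driver and the cells in which it acts, nor the deleted exons, nor the number of animals behind a library. Since each genotype has a single library, differences between genotypes could not be set against replicates. Intervals in the text are 95% and cover counting error only, and levels are counts of the summed cells scaled to a library total of 1e6 UMIs (CPM, counts per 1e6). Where a pair of values follows a gene, f/f is first and d/d second. Mettl14, which encodes the RNA-binding partner of the Mettl3 m6A methyltransferase, lies at chr3:123368297-123386108 on the minus strand (GRCm38). In members it stood at 23.2 CPM (41 UMIs, f/f) and 3.1 CPM (15 UMIs, d/d), a log2 ratio of -2.90 (-3.86 to -2.01). The d/d library therefore held less Mettl14 RNA in these cells, in the direction of its label. Of 15 tested genes for m6A writers, erasers and readers other than Mettl14, 1 was at least 1.5-fold higher in d/d and 0 lower. That gene was Rbm15, an adaptor of the writer complex, at 33.4 and 60.1 CPM.

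As background, the myometrium is the muscular wall of the uterus, and in mice it has an outer longitudinal layer and an inner circular layer. Its cells contract when calcium enters through voltage-gated channels or leaves the sarcoplasmic reticulum and calmodulin activates myosin light chain kinase. Oxytocin, prostaglandin F and endothelin receptors drive contraction, whereas prostacyclin, cyclic nucleotides and potassium channels favour relaxation, and progesterone keeps the muscle quiescent in early pregnancy. Neither matrix gives the layer from which a cell came, so no layer is assigned here.

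Members were 3.92% (3.49 to 4.38) of kept f/f barcodes and 12.4% (11.6 to 13.2) of kept d/d barcodes, a ratio of 3.16 (2.76 to 3.62). Stromal cells were 59.8% and 26.6% of kept barcodes, endothelial cells 6.90% and 9.66%, immune cells 6.85% and 9.04%, and epithelial cells 2.35% and 1.98%, and their part in the share of members was not tested. Within smooth muscle the share hardly differed at full depth. It was 53.02% (48.8 to 57.2) of 562 f/f cells and 52.0% (49.4 to 54.5) of 1504 d/d cells, and the intervals overlapped. Thinned to 2000 UMIs per cell, the d/d share was lower, at 43.7%, against 52.4% in f/f. Cells with the mirror rule, at least 2 of Acta1, Tnni2, Chrdl1, Chrdl2 and Slc22a3 and more of these than of the Pcp4 signature, are called Acta1-set cells here and numbered 81 in f/f and 335 in d/d. The remaining 183 f/f and 387 d/d smooth muscle cells met neither rule. The median member held 4919 UMIs (f/f) or 5656 (d/d), and the median Acta1-set cell 3788 or 6640. Doublet scoring marked 37 f/f and 41 d/d members. The libraries shared 8 barcodes, and 4 members, counted over both libraries, carried one of these.

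The rule fixed the order of its own genes between members and Acta1-set cells, so their shares are given as a description. Pcp4, a small calmodulin-binding protein at chr16:96467606-96525793, was present in 99.3% and 100% of members, but also in 100% and 99.4% of Acta1-set cells, so a Pcp4 UMI was as common in these muscle cells. Its level was 5563 (f/f) and 5880.0 CPM (d/d) in members, 3954 and 4606 CPM in Acta1-set cells, and 11.9 and 16.1 CPM in stromal cells. Stromal cells (median 6495 and 6752 UMIs) had a Pcp4 UMI in 7.3% and 7.8% of cells, which is read as background.

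Gata6 and Asic2 UMIs were rare in Acta1-set cells, which the mirror rule fixed in part. Nearly all of these cells had Pcp4, so one with 2 genes of the Acta1 set could hold no other signature gene. In f/f, 39 of the 81 cells had 1 signature gene and 2 genes of the Acta1 set. Gata6, a zinc finger transcription factor, had a UMI in 68.1% of f/f and 60.7% of d/d members, 0% of 81 f/f Acta1-set cells (exact upper bound 4.45%) and 1.5% of d/d Acta1-set cells. Asic2, a subunit of acid-sensing sodium channels at chr11:80880169-81968457, had one in 41.6% and 38.5% of members and in 0% and 0.6% of Acta1-set cells. Prune2, a BCH domain protein, was found in 75.8% and 69.4% of members, and in 7.4% and 24.8% of Acta1-set cells. Tnnt2, the troponin T of heart muscle, was found in 30.2% and 38.4% of members, and in 2.5% and 20.6% of Acta1-set cells. Thinned to 2000 UMIs, Prune2 was found in 2.7% and 11.5% of Acta1-set cells and Tnnt2 in 1.3% and 7.9%. At that depth Gata6 was found in 38.5% and 30.8% of members and Asic2 in 19.6% and 15.9%.

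**Figure D1:**
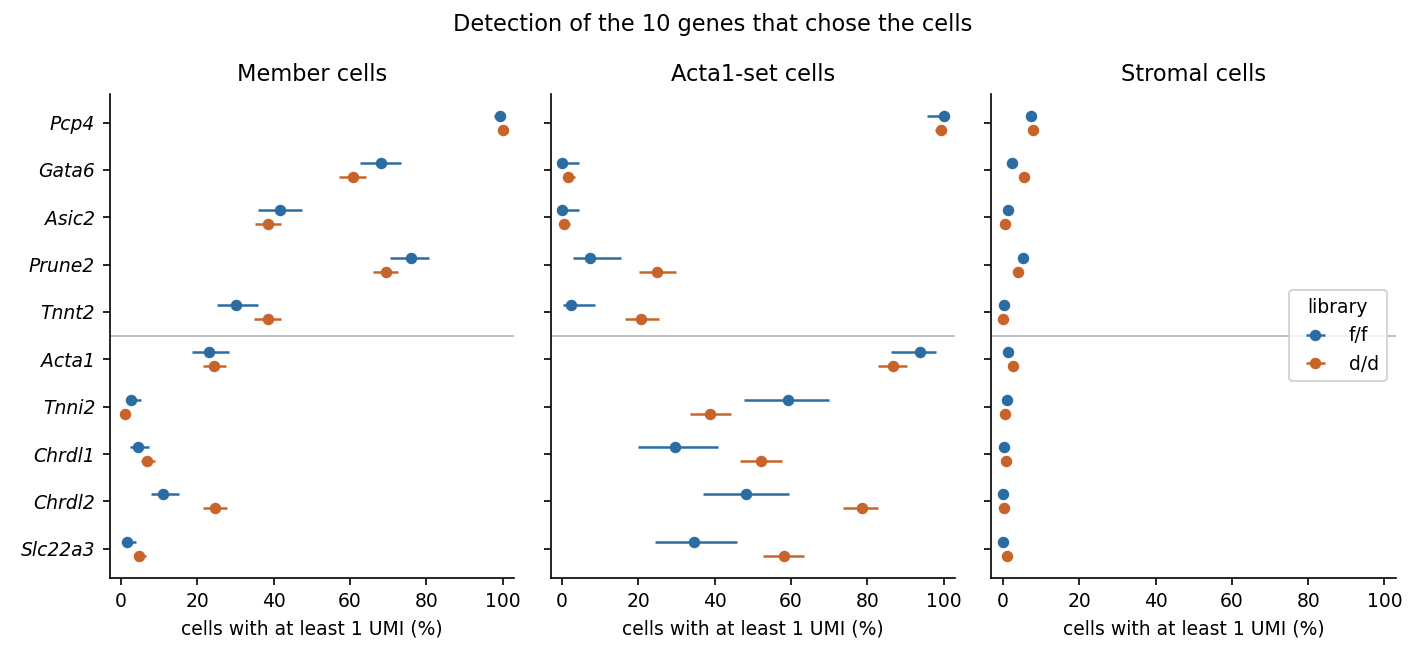
Share of cells with at least 1 UMI of each gene (x axis, %) in members, Acta1-set cells and stromal cells of the f/f and d/d libraries, with exact binomial 95% intervals. Pcp4 is near 100% in both muscle groups, whereas Gata6 is at 68.1% and 60.7% of members and at 0% and 1.5% of Acta1-set cells. The rule chose the muscle cells by these genes.

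Cells just inside and just outside the rule were compared as a description. Members with 2 of the 5 markers had Postn at 1103 (f/f) and 555 CPM (d/d), and those with 4 or 5 markers 1520.2 and 781 CPM. Just outside, cells with 1 marker and none of the Acta1 set had Postn at 307 CPM in f/f (42 cells) and 399 CPM in d/d (75 cells). In f/f those cells also had little Myh11, smooth muscle myosin heavy chain, at 857 CPM against 3316 CPM in members with 2 markers. Cells with equal numbers of both sets (19 in f/f, 83 in d/d) had Postn at 518 and 184 CPM and Tes, a focal adhesion protein, at 323 and 530 CPM, where members with 2 markers had Tes at 133 and 170 CPM.

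Members had high levels of contractile transcripts. Acta2, smooth muscle alpha actin, reached 8746 (f/f) and 8315 CPM (d/d) in members. Tagln, which encodes the actin-binding protein transgelin, reached 7158 and 7943 CPM against 2527 and 4427 CPM in Acta1-set cells. Of 31 contractile genes tested outside the rule, 0 were at least 2-fold higher and 0 at least 2-fold lower in members than in Acta1-set cells of both libraries. Their median log2 ratio was 0.16 in f/f and -0.06 in d/d, beside -0.13 and -0.05 over all tested genes. Promoters are shown here because serum response factor, encoded by Srf, binds CArG boxes in the promoters of contractile genes. Of 39 contractile genes, 32 had a promoter window of 300 bases (250 before to 50 after a start site, RefSeq, GRCm38.p6), and 6 of these (18.8%) held a CArG box on either strand. The genes were Cnn2, Ldb3, Myl6, Myl9, Srf and Vcl. Over all 27025 genes with a window, 488 (1.81%) held one. Of the 4 signature genes with a window, Prune2 held one. The windows of Prune2, of Myl9, the regulatory light chain of smooth muscle myosin, and of Srf itself are printed 5′ to 3′ on the gene's strand with each CArG box in capitals.
Prune2, chr19:16955868-16956167, plus strand: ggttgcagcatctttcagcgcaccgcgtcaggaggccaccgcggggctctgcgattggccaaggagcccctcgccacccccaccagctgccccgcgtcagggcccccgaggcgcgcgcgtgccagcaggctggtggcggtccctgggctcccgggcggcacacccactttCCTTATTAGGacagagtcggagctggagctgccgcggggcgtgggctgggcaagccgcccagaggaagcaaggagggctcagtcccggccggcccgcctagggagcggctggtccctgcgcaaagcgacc
Myl9, chr2:156775214-156775513, plus strand: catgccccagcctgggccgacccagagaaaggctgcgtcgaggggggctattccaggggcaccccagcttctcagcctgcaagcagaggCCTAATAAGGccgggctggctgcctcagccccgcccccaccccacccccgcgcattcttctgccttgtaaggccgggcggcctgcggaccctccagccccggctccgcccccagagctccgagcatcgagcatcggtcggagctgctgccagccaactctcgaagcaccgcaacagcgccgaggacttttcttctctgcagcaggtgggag
Srf, chr17:46556113-46556412, minus strand: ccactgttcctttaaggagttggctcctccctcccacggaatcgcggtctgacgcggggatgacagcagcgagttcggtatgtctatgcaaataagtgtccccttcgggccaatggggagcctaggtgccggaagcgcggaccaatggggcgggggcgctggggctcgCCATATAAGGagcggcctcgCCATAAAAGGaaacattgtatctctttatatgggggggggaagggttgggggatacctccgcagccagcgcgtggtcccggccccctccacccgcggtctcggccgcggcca
The first base of the box lies at -80 from the start site in Prune2, at -161 in Myl9, and at -82 and -62 in Srf. In members Myl9 stood at 2168 (f/f) and 2116 CPM (d/d), Srf at 170.2 and 149 CPM, and Prune2 at 256 and 232 CPM. A match describes these letters and says nothing of whether a factor binds there.

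Genes that differed between members and Acta1-set cells included matrix, receptor and channel genes. Of 6115 genes tested (mean of at least 20 CPM, the rule genes left out), 65 (1.06%) were at least 2-fold higher in members in both libraries and 127 (2.08%) at least 2-fold lower. Scaling the totals by edgeR's TMM factors, which equalise a trimmed mean of the ratios, gave 79 and 97 and moved the share of higher among called genes from 33.9% to 44.9%. With marked doublets left out they were 81 and 172.

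Postn, which encodes the matrix protein periostin at chr3:54361109-54391037, stood at 1323 (f/f) and 674 CPM (d/d) in members and at 85.5 and 67.9 CPM in Acta1-set cells. The log2 ratio was 3.95 (3.48 to 4.47) in f/f and 3.31 (3.08 to 3.55) in d/d. Members therefore had far more Postn RNA in both libraries, and their level also exceeded the stromal one. Adgrg1, an adhesion G protein-coupled receptor, stood at 94.97 and 38.8 CPM in members and at 4.8 and 3.8 CPM in Acta1-set cells. Ccnd1, cyclin D1, stood at 302 and 120 CPM in members, against 7.1 CPM (3 UMIs, log2 ratio 5.41, 3.85 to 7.69) and 23.1 CPM. The small leucine-rich proteoglycans Ogn and Prelp were also higher in members. Ogn was at 375 and 429 CPM against 76.0 and 114 CPM, and Prelp at 78.6 and 96.6 CPM against 7.1 and 20.9 CPM.

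Relaxation, calcium and channel genes had no common order between the muscle cells. Of 15 tested relaxation genes, 1 was higher and 1 lower in members in both libraries, of 19 calcium genes 1 was higher and 3 lower, and of 10 channel genes 2 were higher and 3 lower. Pln encodes phospholamban, which inhibits the calcium pump of the sarcoplasmic reticulum. It stood at 73.5 and 95.8 CPM in members, with 0 UMIs in f/f Acta1-set cells and 23.1 CPM in d/d ones. In f/f this is at least 10.3-fold higher against a floor of 3 UMIs, with an exact interval from a log2 ratio of 3.05 upward. The remaining smooth muscle cells had 55.1 and 276 CPM, so in d/d Pln was higher there than in members. Ptgis, prostacyclin synthase, stood at 149 and 114 CPM against 14.3 and 38.8 CPM. Kcnmb1, the accessory subunit of the large-conductance calcium-activated potassium channel, stood at 78.0 and 51.6 CPM against 9.5 and 18.8 CPM. Its pore-forming partner Kcnma1 had the opposite order, at 18.7 and 19.7 CPM in members against 52.3 and 46.5 CPM. The subunits of another potassium channel, Kcnj8 and Abcc9, were likewise lower in members, Kcnj8 at 20.4 and 44.2 CPM against 59.4 and 146 CPM. Bche (butyrylcholinesterase), Slc14a1 (a urea transporter), Ampd3 (an AMP deaminase), Tagap and the less characterised 1810041L15Rik and 4930523C07Rik complete the 12 genes highest in members. Their log2 ratios over Acta1-set cells ran from 2.14 to 4.11 in d/d.

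Among contraction receptors the muscle cells split. Oxtr, the oxytocin receptor at chr6:112473683-112489943, stood at 26.6 CPM (47 UMIs, f/f) and 34.8 CPM (168 UMIs, d/d) in members, and at 0 and 2.1 CPM in Acta1-set cells (0 and 5 UMIs). Against a floor of 3 UMIs this is at least 3.73-fold higher in f/f, where the exact interval starts at a log2 ratio of 1.54, and a log2 ratio of 4.03 (2.78 to 5.67) in d/d. An Oxtr UMI was present in 12.8% of f/f and 16.2% of d/d members, and in 0.5% and 2.0% of stromal cells. Oxtr fell below the mean of 20 CPM over the compared groups and is outside the counts of called genes.

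Ptgfr, the prostaglandin F receptor, had the reverse order, at 25.4 and 26.5 CPM in members against 159 and 124 CPM in Acta1-set cells. Ptger3, a prostaglandin E receptor, stood at 93.3 and 36.3 CPM against 487 and 287 CPM. Ednra, the endothelin A receptor, stood at 33.9 and 46.2 CPM against 216 and 200 CPM, and in members it was close to the stromal 33.0 and 53.1 CPM. Of 6 tested genes for contraction-associated receptors and gap junctions, these 3 were at least 2-fold lower in members in both libraries and 0 higher. The list median was -1.80 in f/f and -1.61 in d/d.

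Steroid receptors also differed, though less. Esr1, the estrogen receptor alpha, stood at 406 (f/f) and 365 CPM (d/d) in members, against 188 and 218 CPM. Pgr, the progesterone receptor, stood at 138 and 141 CPM against 335 and 212 CPM. Neither passed 2-fold in both libraries. Greb1, an estrogen-responsive gene, did, at 19.2 and 42.1 CPM in members against 0 UMIs (at least 2.70-fold against the same floor, exact interval from a log2 ratio of 1.05 upward) and 19.2 CPM.

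**Figure D2:**
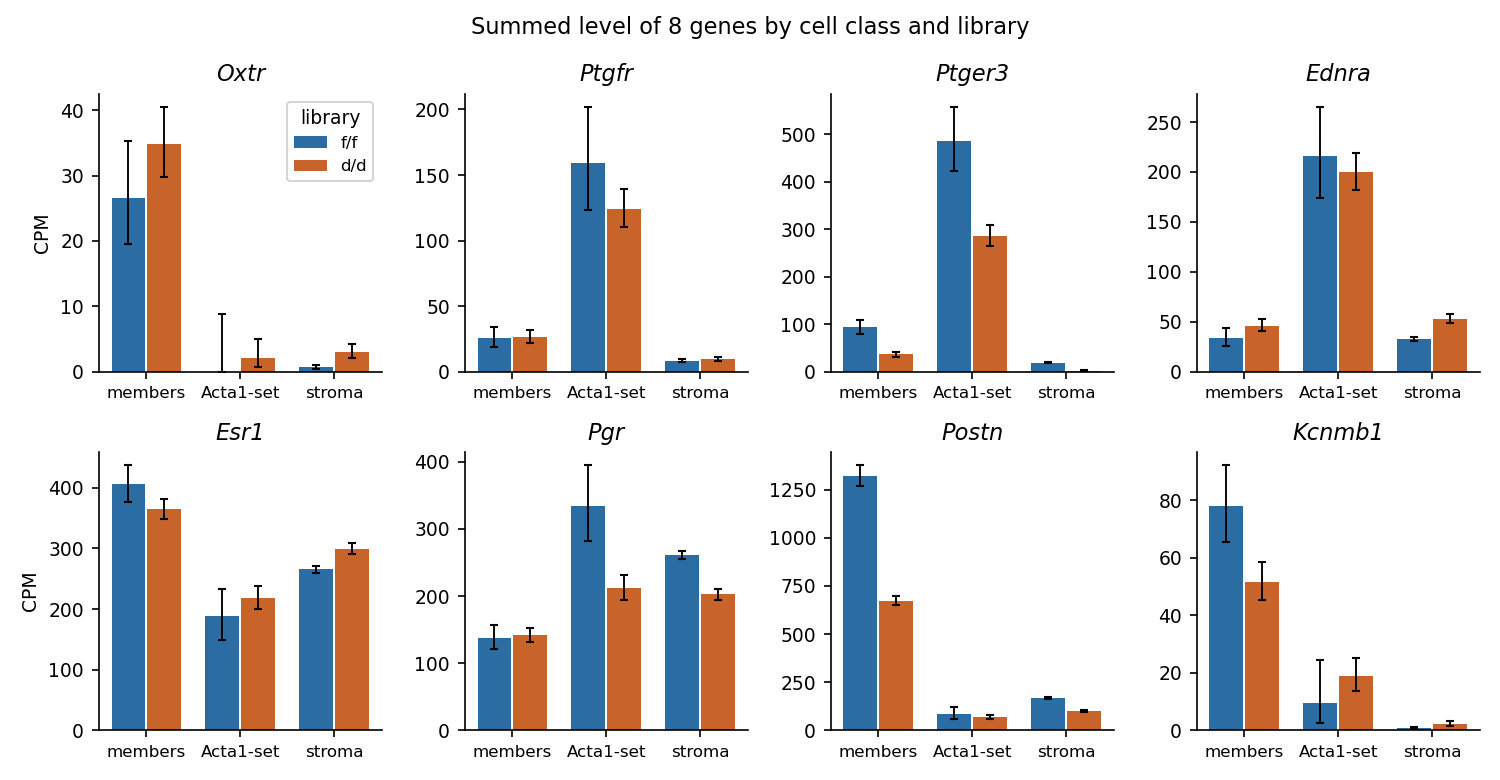
Summed level (y axis, CPM, linear from 0) of 8 genes in members, Acta1-set cells and stromal cells of each library, with exact Poisson 95% intervals. Oxtr, Postn, Esr1 and Kcnmb1 are highest in members, whereas Ptgfr, Ptger3, Ednra and Pgr are highest in Acta1-set cells in both libraries.

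Among the 12 genes lowest in members, Mybpc1, a myosin-binding protein of slow skeletal muscle, stood at 7.3 and 4.8 CPM in members against 95.001 and 50.8 CPM in Acta1-set cells. Cacna1d, the pore subunit of an L-type calcium channel, stood at 9.0 and 19.1 CPM against 116 and 152 CPM. Ntng1, netrin G1, stood at 5.7 and 6.2 CPM against 99.8 and 67.9 CPM. Tes stood at 87.1 and 122 CPM against 824 and 727 CPM, and the matricellular gene Smoc2 at 53.1 and 161 CPM against 812 and 816 CPM. Col12a1, a fibril-associated collagen, stood at 27.1 and 18.2 CPM against 563 and 120 CPM. Luzp2, Gpr83, Trhde, Crybg3, Ptger3 and Fat3 complete the 12, with log2 ratios from -3.52 to -2.25 in d/d.

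**Figure D3:**
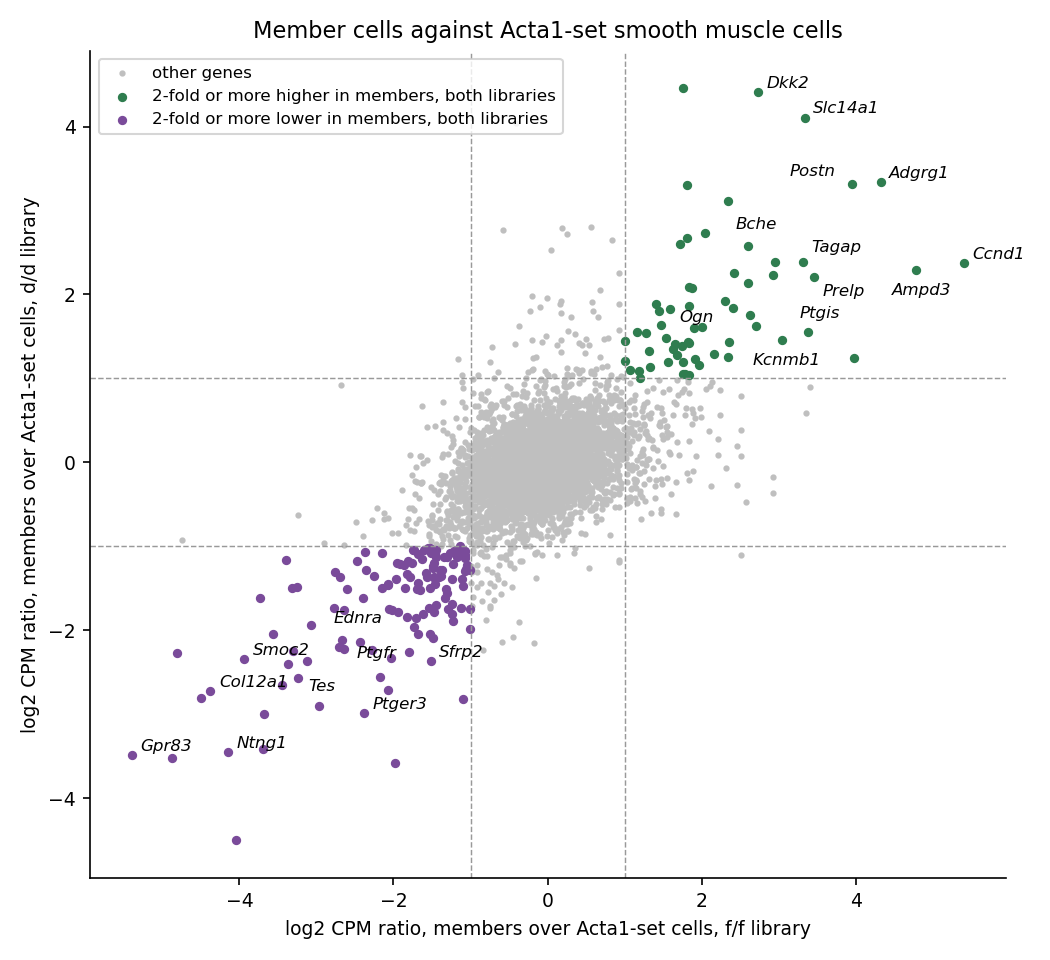
Log2 CPM ratio of members over Acta1-set cells in the f/f library (x axis) against the d/d library (y axis) for 6109 tested genes; dashed lines mark 2-fold, and 6 genes with 0 UMIs in a group are not drawn. Postn, Adgrg1 and Ccnd1 are far to the upper right, and Ntng1, Gpr83 and Ptger3 to the lower left.

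Other lists described the members by few genes. Of 18 tested genes for BMP, activin and TGF-beta signalling, 2 were higher and 2 lower in members in both libraries. Inhbb, an activin subunit, stood at 36.7 and 49.1 CPM against 4.8 and 9.4 CPM, and Ltbp1, which holds latent TGF-beta in the matrix, at 46.4 and 121 CPM against 299 and 312 CPM. Of 22 basement membrane and integrin genes, 1 was higher and 1 lower. The higher gene was Itga5, the alpha subunit of the fibronectin receptor, at 207 and 73.8 CPM against 40.4 and 27.3 CPM. Of 20 growth factor and guidance genes, 3 were higher and 2 lower, with Sema3a, a secreted guidance cue, at 46.9 and 59.5 CPM against 14.3 and 9.8 CPM. The Wnt antagonist Sfrp2 was lower in members, at 61.6 and 36.1 CPM against 176 and 186 CPM, whereas Dkk2, another Wnt antagonist, was higher, at 15.8 and 81.9 CPM against 2.4 CPM (1 UMI, log2 ratio 2.74, 0.14 to 8.09) and 3.8 CPM.

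Members were not uniform. Clustering of all smooth muscle cells of a library without the rule genes placed 100, 78 and 70 of the 298 f/f members in 3 clusters. In d/d, 4 clusters held 250, 165, 161 and 102 of the 782 members. Most Acta1-set cells lay elsewhere. In f/f, 63 of 81 lay in a single cluster with 6 members, and 16 in a cluster with 35 members. In d/d, 208 and 85 of 335 lay in a pair of clusters with 28 and 26 members. Those d/d members held 217967 and 143827 of 4823106 UMIs and had Postn at 165 and 250 CPM. The 6 f/f members held 18631 of 1768897 UMIs and had no Postn UMI. Such cells thus had more weight in the summed d/d levels.

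Within members 1 cluster per library had Galnt15 (an O-glycosylation enzyme) and Myo5c (an unconventional myosin) among its leading genes. It held 70 f/f and 165 d/d members. The other leading genes differed between the libraries. 1810041L15Rik was a leading gene of the f/f cluster, at 128 CPM, but stood at 9.9 CPM in the d/d cluster. Whether these clusters match was not tested. In the d/d one, Oxtr stood at 82.3 CPM and Postn at 1059 CPM, against 39.3 and 835 CPM in the cluster of 250 members. Pln had the reverse order there, at 14.2 against 140.3 CPM. In f/f the order of all 3 genes was the reverse, by little for Oxtr. There the Galnt15 cluster had Oxtr at 48.4, Postn at 1522 and Pln at 183 CPM, against 53.2, 2045 and 85.9 CPM in the cluster of 100 members. The clusters were made from the same genes, and these values are a description.

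A further cluster per library held most of the marked smooth muscle doublets, with 58 among 74 cells (f/f) and 59 among 84 (d/d), and 35 and 38 members. In those members the stromal collagen Col1a1 stood at 2476 (f/f) and 3857 CPM (d/d), and Pdgfra, a receptor of stromal cells, at 346 and 296 CPM. In the f/f cluster of 100 members they stood at 223 and 28.6 CPM. The 35 f/f members of the doublet-rich cluster held 447519 of the 1768897 UMIs of all f/f members. The 38 d/d ones held 490302 of 4823106, so such cells had more weight in the summed f/f levels. Another f/f cluster held 9 members with 127665 UMIs. In these 9, Myh11 stood at 345 CPM, Pdgfra at 540 CPM and the stromal marker Dcn at 1708 CPM.

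Between genotypes, members of the d/d library had higher stress-response and signal-induced transcripts and lower matrix transcripts than f/f members. Of 5927 tested genes outside the rule, 202 (3.41%) were at least 2-fold higher in d/d and 166 (2.8%) at least 2-fold lower. TMM scaling moved the median log2 ratio from -0.09 to 0.06, these counts to 277 and 101, and the share of higher among called genes from 54.9% to 73.3%. Without marked doublets they were 198 and 170. At the 1.5-fold used for lists, 511 (8.62%) were higher and 693 (11.7%) lower, and the share of each list is read against these.

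Hes1, a transcriptional repressor downstream of Notch, stood at 58.8 (f/f) and 360 CPM (d/d) in members, a log2 ratio of 2.61 (2.33 to 2.91). It was also higher in d/d Acta1-set cells, at 9.5 and 107 CPM, and in stroma, at 60.9 and 628 CPM. Tnfrsf12a, the receptor of the cytokine TWEAK, stood at 14.7 and 107 CPM, and Hbegf, a ligand of the epidermal growth factor receptor, at 11.9 and 86.0 CPM. Dbp, a circadian transcription factor, stood at 11.9 and 78.6 CPM, and Irs2, an adaptor of the insulin receptor, at 13.6 and 79.0 CPM. Each of these 5 genes was at least 2-fold higher in d/d in Acta1-set cells and stroma too. Sertad1, Egr3, Csrnp1 and Ppp1r15a, a phosphatase subunit of the integrated stress response, followed the same order in all 3 cell groups. AY036118 had the highest bound, at 125 and 1032 CPM, but its reads may come from near-identical copies elsewhere, and it is reported as uncertain.

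Dkk2, Lbh and Rspo3 are given with their values in other cells. Dkk2 stood at 15.8 (f/f) and 81.9 CPM (d/d) in members, a log2 ratio of 2.37 (1.82 to 2.98), and stroma had 9.9 and 16.5 CPM. Acta1-set cells had 2.4 and 3.8 CPM from 1 and 9 UMIs, a log2 ratio of 0.69 (-2.16 to 6.15), which includes the value in members. Lbh, a transcriptional cofactor, stood at 20.4 and 102 CPM in members, at 23.0 and 58.8 CPM in stroma, and at 88.7 and 214 CPM in the remaining smooth muscle cells, but at 131 and 53.8 CPM in Acta1-set cells. Rspo3, which encodes a secreted amplifier of Wnt signalling at chr10:29452416-29535867, stood at 180 (f/f) and 543 CPM (d/d) in members, a log2 ratio of 1.59 (1.43 to 1.77). Acta1-set cells had 390 and 263 CPM. Lbh and Rspo3 were thus higher in d/d members and lower in d/d Acta1-set cells, but with 1 library per genotype the difference between the ratios was not tested.

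**Figure D4:**
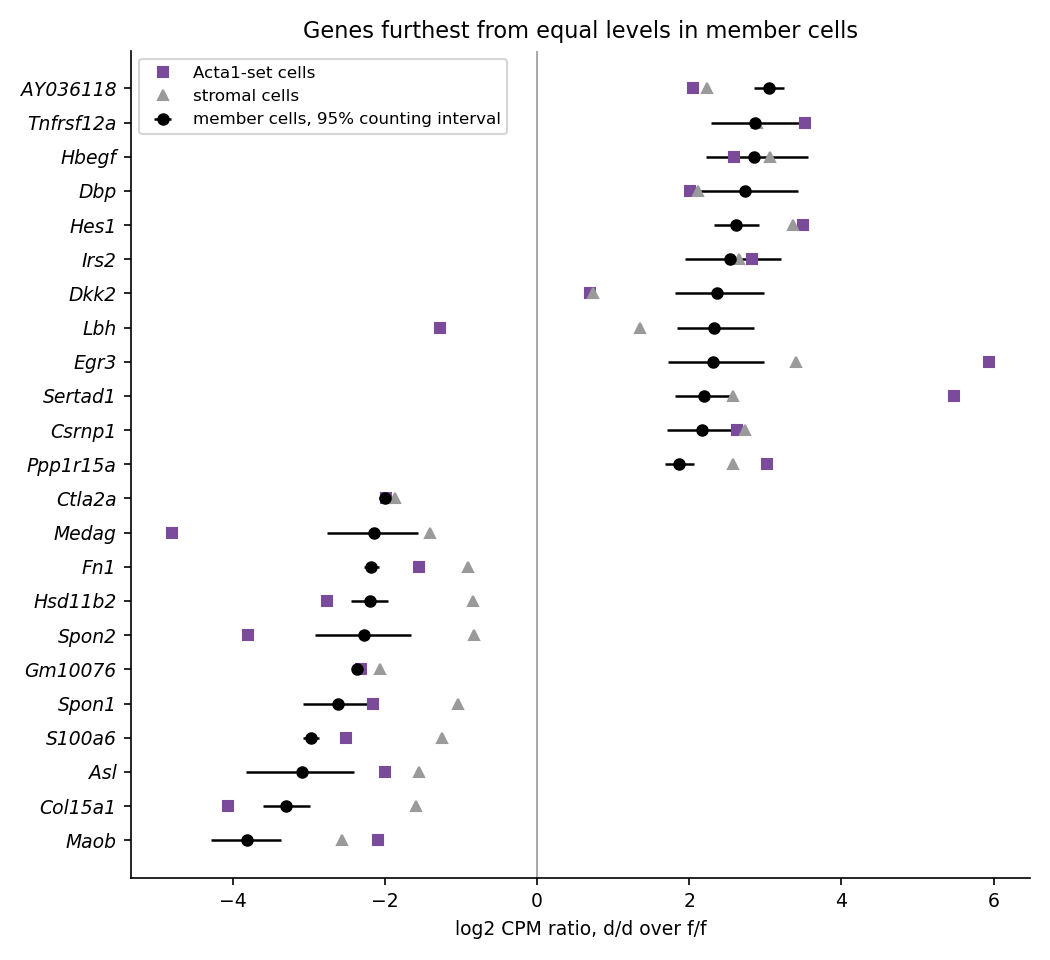
Log2 CPM ratio of d/d over f/f (x axis) for 12 genes far above and 11 far below equal levels in members by the near bound of the 95% counting interval (bars), with the ratio in Acta1-set and stromal cells. Lbh is the gene whose Acta1-set ratio lies on the other side of 0, at -1.28 against 2.33 in members.

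Immediate early and heat shock genes formed the list with the most higher members. Of 26 tested, 18 were at least 1.5-fold higher in d/d members and 1, Klf2, lower, with a list median of 1.02 beside -0.09 over all tested genes. Egr1, an early transcription factor, stood at 1011 and 2837 CPM, Nr4a1, an orphan nuclear receptor, at 117 and 405 CPM, and Hspa1a, an inducible Hsp70 chaperone, at 424 and 1406 CPM. Per cell, the list took a median of 1.08% (f/f) and 1.87% (d/d) of a member's UMIs. In Acta1-set cells the medians were 0.50% and 1.91%, and in stroma 0.50% and 1.65%. The f/f members thus already had the highest level among these f/f cells, and the list median between libraries was smaller in members than the 1.90 in Acta1-set cells and 1.97 in stroma.

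Related lists had fewer genes. Of 12 integrated stress and NRF2 genes, 5 were higher in d/d members and 1 lower, with Hmox1, heme oxygenase, at 11.9 and 109 CPM and Xbp1, a factor of the unfolded protein response, at 124 and 46.9 CPM. Of 12 p53 targets, 5 were higher and 0 lower, with Cdkn1a, a cyclin-dependent kinase inhibitor, at 71.8 and 270.2 CPM. Of 5 inflammatory genes, 3 were higher, among them Cebpb, a transcription factor, at 139 and 502 CPM, and Nfkbia, the inhibitor of NF-kappaB, at 36.2 and 187 CPM.

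More matrix genes were lower in d/d members than higher. Of 30 tested interstitial matrix genes, 11 were lower in d/d members by 1.5-fold or more and 4 were higher, with a median of -0.52. Fn1, fibronectin, stood at 1247 (f/f) and 276 CPM (d/d) in members, a log2 ratio of -2.18 (-2.28 to -2.08), and Col6a3, a chain of collagen VI, at 600.4 and 251 CPM. Postn stood at 1323 and 674 CPM. Of 23 basement membrane and integrin genes, 7 were lower and 1 higher. Col15a1 stood at 230 and 23.4 CPM and Itga5 at 207 and 73.8 CPM. Thbs1, thrombospondin, and Timp3, an inhibitor of matrix proteases, were higher in d/d, at 78.0 and 254 CPM and at 181 and 495 CPM.

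Stromal and endothelial RNA moved with this result. The 7 stromal markers summed to 3765 CPM in f/f members, 35.6% of their level in the stroma of that library. In d/d members they summed to 2287 CPM, 12.7% of the stromal level, and none of the 7 was at 0. Without marked doublets the sums were 2241 and 1516 CPM. The epithelial list summed to 26.0 and 21.1 CPM, the immune list to 51.4 and 38.4 CPM, the glial list to 5.7 and 5.4 CPM, and the blood endothelial list to 83.7 and 29.4 CPM (51.1 and 28.0 CPM without marked doublets), with Epcam, Ptprc and Pecam1 at 0 by the rule. Mesothelial markers summed to 278 and 190 CPM, with 3 of 5 at 0 in d/d. Itga5 was higher in f/f members than in f/f stroma, where it stood at 29.9 CPM. Fn1 in f/f members was near its f/f stromal level of 1190.2 CPM. Col15a1, Spon1 and S100a6 were higher in f/f stroma, at 752, 269 and 3909 CPM. Without marked doublets the matrix list held 8 lower and 3 higher of 23 tested genes, with a median of -0.51, and Fn1 had a log2 ratio of -2.42. The part of stromal and endothelial RNA in the lower genes was not tested.

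Maob, a monoamine oxidase, had the lowest bound, at 140 (f/f) and 10.0 CPM (d/d) in members (log2 ratio -3.81, -4.29 to -3.36), with 544 and 92.5 CPM in stroma. S100a6, a calcium-binding protein, stood at 1585 and 202 CPM, and Hsd11b2, which inactivates glucocorticoids, at 211 and 46.0 CPM. The lowest genes also included Asl, Spon1, Ctla2a, Spon2, Medag and Gm10076, a predicted gene whose reads may come from near-identical copies and which is reported as uncertain. These genes, Fn1 and Col15a1 were also lower in d/d in Acta1-set cells and stroma.

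**Figure D5:**
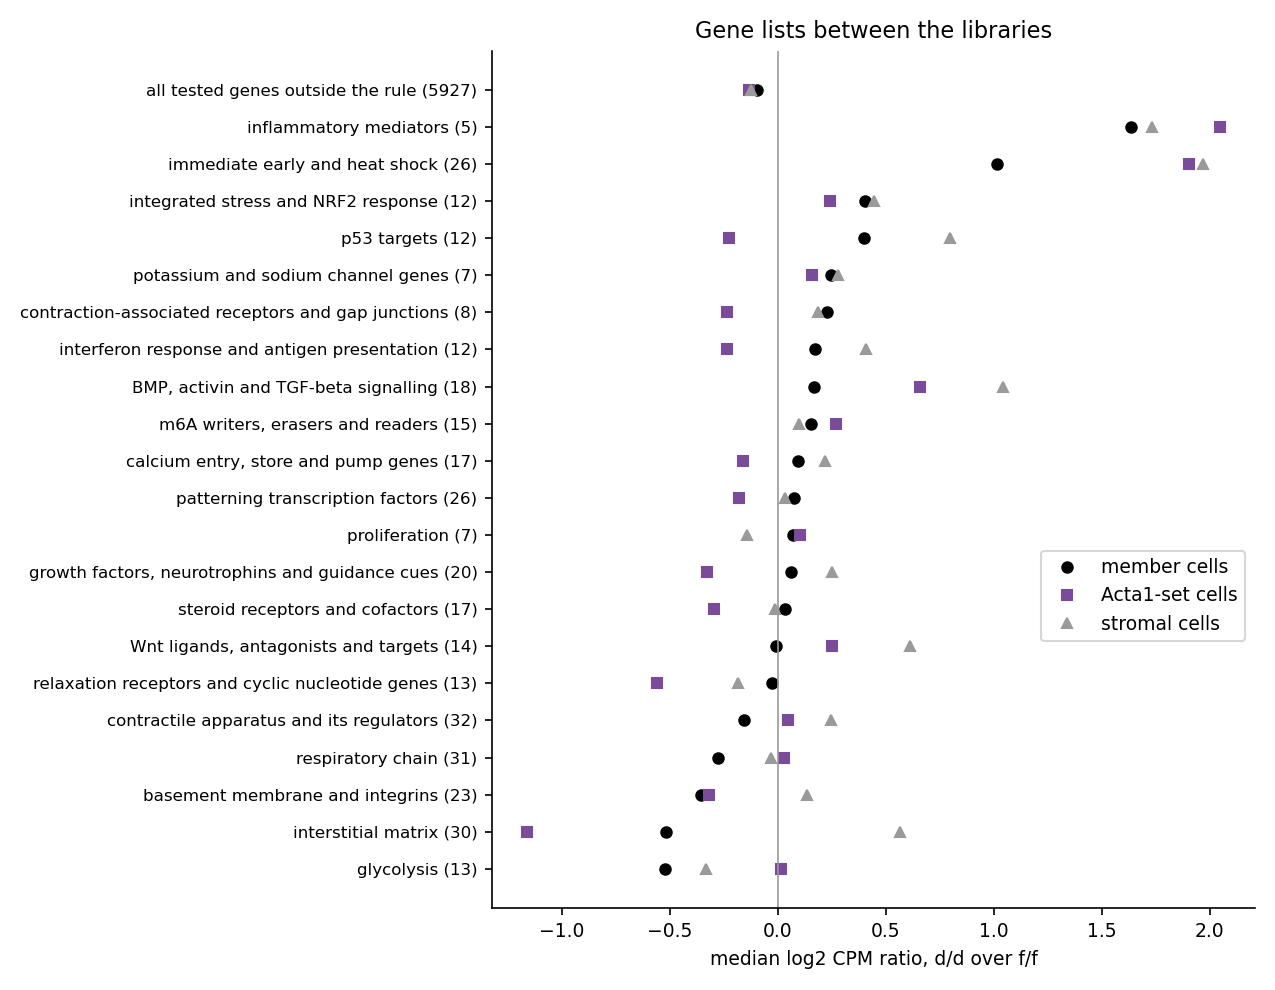
Median log2 CPM ratio of d/d over f/f (x axis) over the tested genes of each list (number in brackets) in members, with the medians of the same genes in Acta1-set and stromal cells. The immediate early and heat shock list is at 1.02 in members, 1.90 in Acta1-set cells and 1.97 in stroma, whereas interstitial matrix is at -0.52, -1.16 and 0.57.

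Contractile genes outside the rule summed to 46084 (f/f) and 44945 CPM (d/d) in members. These sums include the doublet-rich clusters, which had more weight in f/f. Of 32 tested outside the rule, 3 were lower in d/d members by 1.5-fold or more and 0 higher, a share near the background of lower genes, and without marked doublets 5 were lower. The list median of -0.16 was -0.01 under TMM scaling and -0.29 without marked doublets. The 3 lower genes were Synm and Ldb3, which link filaments to attachment sites and Z-line-like bodies, and Pdlim7, a LIM domain protein of the cytoskeleton, at 297 and 153, 32.8 and 14.7, and 416 and 250 CPM. The rule genes Des, Smtn, Actg2 and Synpo2 were themselves lower, given here as a description. Des, desmin, stood at 1313 and 585 CPM, Smtn, smoothelin, at 1480.0 and 771 CPM, Actg2, enteric gamma actin, at 2079.8 and 1187 CPM, and Synpo2 at 1227 and 729.8 CPM. Des was also lower in stroma, at 134 and 31.6 CPM. Myh11 stood at 3917 and 2890.2 CPM. The 9 smooth muscle markers, which include the 6 of the rule, summed to 27351 and 23638 CPM. Without marked doublets they summed to 33563 and 24857 CPM. Per cell, the contractile list took a median of 6.89% (f/f) and 5.30% (d/d) of a member's UMIs. That list includes genes of the rule, so the share is given as a description.

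Contraction-associated genes were split. Of 8 tested, 2 were higher in d/d members and 2 lower. F2r, the thrombin receptor, stood at 48.1 (f/f) and 11.6 CPM (d/d), and Ptger3 at 93.3 and 36.3 CPM. Agtr1a, an angiotensin receptor, stood at 10.2 and 32.3 CPM, and Gjc1, a connexin, at 57.1 and 88.5 CPM. F2r in f/f members was below the stromal 158 CPM. Oxtr intervals overlapped, 19.5 to 35.3 CPM in f/f and 29.8 to 40.5 CPM in d/d. Gja1, connexin 43, stood at 46.4 and 31.5 CPM.

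Of 17 calcium genes, 3 were higher in d/d and 1 lower, with a median of 0.09. Without marked doublets 1 was higher and 1 lower, and the median was -0.05. Cacna1c, the main L-type channel subunit of smooth muscle, stood at 107 and 170 CPM, and Atp2b4, a plasma membrane calcium pump, at 506 and 329 CPM. Of 7 channel genes, Kcnj8 and Kcnd3 were higher, Kcnj8 at 20.4 and 44.2 CPM, and Kcnmb1 was lower, at 78.0 and 51.6 CPM (0 lower genes under TMM scaling, 2 without marked doublets). Of 13 relaxation genes, 1 was higher and 2 lower (3 and 2 under TMM scaling). Npr3, the clearance receptor of natriuretic peptides, was the higher gene, at 14.7 and 46.7 CPM. Rgs2, which shortens signalling of Gq-coupled receptors, was lower, at 451 and 176 CPM, with 1052 and 84.7 CPM in stroma. Hpgd, which degrades prostaglandins, was also counted as lower, at 33.4 and 16.2 CPM, but its log2 ratio was 0.0073 without marked doublets.

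Steroid-related genes were split, 3 higher and 3 lower of 17. Fkbp5 and Fkbp4, co-chaperones of steroid receptors, stood at 34.5 and 10.4 CPM and at 123 and 65.5 CPM, whereas Sgk1, a kinase induced by corticosteroids, stood at 116 and 199 CPM and Greb1 at 19.2 and 42.1 CPM. Esr1 (406 and 365 CPM) and Pgr (138 and 141 CPM) were within 1.5-fold. Of 18 BMP and TGF-beta genes, 6 were higher and 2 lower, with Smad7, an inhibitor of the pathway, at 28.3 and 116 CPM, and Fst, the activin antagonist follistatin, at 61.1 and 3.5 CPM. Of 14 Wnt genes, 3 were higher (Dkk2, Rspo3 and Tcf7l2) and 3 lower (Sfrp2, Wnt5a and Nkd2), which became 5 and 2 under TMM scaling and 3 and 1 without marked doublets. Of 20 growth factor genes, 2 were higher and 5 lower (4 and 3 under TMM scaling). Igf1, insulin-like growth factor 1, stood at 608 and 284 CPM, with 2005 and 1089 CPM in stroma, and a log2 ratio of -1.10 that was -0.59 without marked doublets. Cxcl12, a chemokine, stood at 139 and 274 CPM.

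Among energy metabolism genes, more were lower than higher in d/d members. Of 13 glycolysis genes, 5 were lower in d/d members and 1 higher, with a median of -0.52. Without marked doublets 7 were lower and 1 higher, with a median of -0.60. Pkm, pyruvate kinase, stood at 230 and 125 CPM, and Ldhb, a lactate dehydrogenase subunit, was the higher gene, at 78.0 and 138 CPM. Of 31 respiratory chain genes, 4 were lower and 0 higher, a share near the background of lower genes. Without marked doublets 9 were lower, and under TMM scaling 2. Sdha, a subunit of succinate dehydrogenase, stood at 142 and 68.2 CPM. In Acta1-set cells the glycolysis and respiratory chain medians were 0.02 and 0.03.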

How the data were processed

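Droplet 3′ single-cell libraries of whole mouse uterus were analysed, 1 per Mettl14 genotype, from matrices of UMI counts for 31053 genes. The authors deposited raw counts per gene and barcode, made with Cell Ranger 3.0.1 on mm10 per the submitters' processing notes, while the file headers name cellranger 6.0.1; the lowest barcode total was 500. The f/f library held 8164 barcodes and 55080123 UMIs, the d/d library 6661 and 44745031. The members, gene lists and comparisons were chosen with earlier results of these data known.

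Raw counts were summed over the cells of each class and scaled to CPM. With 1 library per genotype no test was made: ratios carry exact conditional intervals, levels exact Poisson intervals and shares Clopper-Pearson intervals (95%), which cover counting error only. Genes with a mean of at least 20 CPM and 20 UMIs were compared, and 2-fold (genes) or 1.5-fold (lists) was called. Named genes were the 12 highest and 12 lowest by the interval bound nearest 0, at a level of at least 25% of the highest other class, and up to 6 per list (some are not reported here); other genes of the lists were named after their values were seen. A gene at 0 UMIs was given a floor of 3. Doublets were scored with Scrublet (0.8% per 1000 barcodes, 533 and 355 marked) and kept. Smooth muscle cells were clustered with Leiden (2000 variable genes without the rule genes, 30 components, 15 neighbours, resolution 1). Of the gene IDs, 30934 matched GENCODE M21, and 7 of 651 list symbols were not found. Promoter sequences are from RefSeq (GRCm38.p6). The scripts were tested on simulated data. Alternatives were TMM scaling (edgeR 4.0.16, R 4.3.3), other filters, stricter rules, thinning and leaving out doublets. Tools were scanpy 1.11.5, leidenalg 0.10.2, igraph 0.11.9, numpy 2.4.6, scipy 1.17.1, pandas 2.3.3 and matplotlib 3.10.9.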

Additional observations from a re-analysis of the deposited data

Results flagged for a closer look

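For 4 named genes the d/d over f/f ratio lay past 1.5-fold in opposite directions in members and in Acta1-set cells, and with 1 library per genotype none of these differences was tested. Lbh, a transcriptional cofactor, had a log2 ratio of 2.33 in members and -1.28 in Acta1-set cells. Ccnd1, cyclin D1, had -1.34 in members and 1.69 in Acta1-set cells, the latter from 3 UMIs in f/f. Kcnmb1, the potassium channel subunit, had -0.60 and 0.98, the latter from 4 UMIs in f/f with an interval of -0.47 to 2.92. Lama5, a laminin chain of basement membranes, had -0.64 and 0.83.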

How the results depend on the processing

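No paired analysis was possible because each genotype has 1 library, and no library could be left out. Members were 37.4% of f/f and 35.8% of d/d smooth muscle with at least 3 markers, 63.2% and 56.0% with at least 5 of the 6 smooth muscle genes, and 43.7% of d/d smooth muscle after thinning. Between genotypes, 101 genes were lower under TMM scaling. At a mean of at least 50 CPM, 92 genes were higher and 59 lower, and 44 list genes were higher (67 at 20 CPM); without a filter, 937 were higher and 1631 lower. Against Acta1-set cells, 22 were higher and 60 lower at 50 CPM. Hpgd reversed, from -1.04 to 0.0073 without marked doublets, and the cause was not tested. Of other list medians, inflammatory mediators fell to 0.18 without mitochondrial and ribosomal genes. At a mean of at least 50 CPM, BMP, activin and TGF-beta genes went from 0.17 to -0.18. Integrated stress and NRF2 genes went from 0.40 to 1.10 at that mean. With each cell counted equally, the immediate early and heat shock list went from 1.02 to 0.74. Maob was -3.45, Dkk2 2.05 and Oxtr in d/d (members over Acta1-set cells) 5.37 without marked doublets. Low counts in the 81 f/f Acta1-set cells limit every ratio against them.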

Other observations

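Interferon response and antigen presentation genes included 2 of 12 that were at least 1.5-fold higher in d/d members and 2 lower, with a list median of 0.17. Under TMM scaling 5 of 13 were higher and 1 lower, and without marked doublets 4 and 2. Of 26 patterning transcription factors, 4 were higher and 3 lower, which became 7 and 1 under TMM scaling and 7 and 4 without marked doublets. Meis2, a homeobox factor, stood at 465 and 852 CPM. Of 7 proliferation genes, 1 was higher and 2 lower, with a list median of 0.07 that was -0.26 without marked doublets.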
